A study of Mus musculus with 12 samples.

Results

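Beta oxidation, the pathway that cuts acyl-CoA esters of fatty acids into acetyl-CoA, is described here through 37 of its genes in mouse livers. The 37 genes were chosen by name and sorted by where their proteins work. The mitochondrial class held 18 of them, the peroxisomal class 14, and a mixed class of 5 held genes whose proteins work in both organelles or elsewhere. All 37 names were found among the 34607 distinct names on the array, and 36 passed the filter on dim probes, as did 20572 genes in all. The exception was Acot2, a mitochondrial acyl-CoA thioesterase, whose probe was above background on 2 arrays of E2f1 knockout livers, 1 of E2f2-labelled livers and 2 of wild-type livers.

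RNA from 12 livers was hybridised to one-colour Agilent arrays, 1 mouse per array and 4 mice per group. The groups were E2f1 knockout mice, mice labelled as E2f2 knockout, and wild-type mice of a mixed 129/Sv x C57BL/6 background. Per the protocol in the labels, all 3 groups shared the liver carcinogen diethylnitrosamine, 25 mg/kg on postnatal day 14, and then a diet with 60% of its calories from fat for 32 weeks. All were 9 months old and had fasted for 4 hours. A single field of the E2f1 knockout labels names vehicle and chow instead, against their titles, descriptions and characteristics, and this conflict touches every comparison with those mice. Neither the deleted part of each gene nor the sex of the mice is stated in these labels.

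Long-chain fatty acids are activated to acyl-CoA and enter mitochondria through the carnitine shuttle, where acyl-CoA dehydrogenases, the trifunctional protein and thiolases shorten them and pass electrons to the respiratory chain through the electron transfer flavoprotein. Peroxisomes shorten very long-chain, branched and bile acid side chains with acyl-CoA oxidases, bifunctional enzymes and thiolases of their own. In rodent liver many genes of both organelles are targets of the nuclear receptor PPARA.

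Values are log2 processed signal relative to the 75th percentile of the same array, so they compare livers for a given probe and not probes with each other. That percentile lay between 119.2 and 238.3 signal units, and 44.6% to 54.4% of probes were above background. The E2f1 probe measured -0.72, -0.91, -0.64 and -0.79 in E2f1 knockout livers, -0.50, -0.17, 0.08 and 0.19 in E2f2-labelled livers and -0.27, 0.13, 0.45 and -0.08 in wild-type livers. All E2f1 knockout livers were the lowest, with a log2 difference from wild type of -0.82 ± 0.19 (SE, adjusted p = 0.0114). The E2f2 probe measured -0.20, -1.10, -0.86 and -0.65 in E2f1 knockout livers, 0.19, 0.72, 0.73 and 0.53 in E2f2-labelled livers and 0.48, 1.04, 0.97 and 0.71 in wild-type livers. It was not called lower in the livers labelled E2f2 knockout (-0.26 ± 0.21, adjusted p = 0.408) but was lower in E2f1 knockout livers (-1.50 ± 0.21), so the group is called E2f2-labelled throughout. Cpt2, the inner-membrane carnitine palmitoyltransferase, differed from wild type by 1.34 ± 0.24 in E2f1 knockout livers and by 1.36 ± 0.24 in E2f2-labelled ones. Wild-type replicate 3 stood apart from the other wild-type livers in liver tumour markers, and E2f1 knockout replicate 1 from its group in the 2 adipocyte markers tested, whose summed log2 level ranged from 0.95 to 5.56 in E2f1 knockout and 3.60 to 4.48 in wild-type livers. Each slide held 1 array of each group, always in the same column of the slide, so position on the slide and group cannot be told apart. Of the called genes, 64% were higher in E2f1 knockout livers and 65.8% in E2f2-labelled ones than in wild type, against 50.4% and 49.5% with quantile normalization and 50.9% and 47.6% with median centring.

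In E2f1 knockout livers most genes of the pathway were higher in both organelles. Of 36 members tested, 28 rose, none fell and 8 were not called (limma, adjusted p under 0.05). Of all genes tested 20.6% were called, 13.2% higher and 7.41% lower. Among mitochondrial members 15 of 17 rose, with a median log2 difference of 0.79 over the class and a range of 0.55 to 1.28. Among peroxisomal members 10 of 14 rose, with a median of 1.06 and a range of -1.37 to 2.06. In the mixed class 3 of 5 rose, with a median of 1.31. The median over all genes tested was 0.13. The 4 E2f1 knockout livers lay above all 4 wild-type livers for 15 mitochondrial, 9 peroxisomal and 3 mixed members, against 14.5% of all genes, and below them for no member, against 6.77%. In bulk liver, fewer cells of a type and less RNA per cell cannot be told apart.

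E2f2-labelled livers showed fewer calls in the same pathway. Of the 36 members, 19 rose and 1, Abcd2, fell. Of all genes 22.2% were called, 14.6% higher and 7.58% lower. Mitochondrial members gave 9 rises of 17 and a median of 0.61, peroxisomal members gave 7 rises of 14 and a median of 0.84, and the mixed class gave 3 of 5 and a median of 1.19, against 0.18 for all genes. The livers lay wholly above wild type for 9 mitochondrial, 4 peroxisomal and 3 mixed members, where 16.8% of all genes did, and wholly below it for no member, where 7.05% did. Both comparisons use the same 4 wild-type livers, so they are not independent.

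Set directly against each other, E2f1 knockout and E2f2-labelled livers differed in 1 of the 36 members, Acox2, where 1.64% of all genes were called, 0.724% higher and 0.914% lower. The groups did not overlap, with E2f1 knockout higher, for 2 members, Acox2 and Hsd17b10 (3.83% of all genes), and with it lower for none (5.23%). The median differences were 0.17 for mitochondrial and 0.23 for peroxisomal members and -0.03 for all genes. The larger number of calls in E2f1 knockout livers is therefore no test of a difference between the 2 groups.

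**Figure D1:**
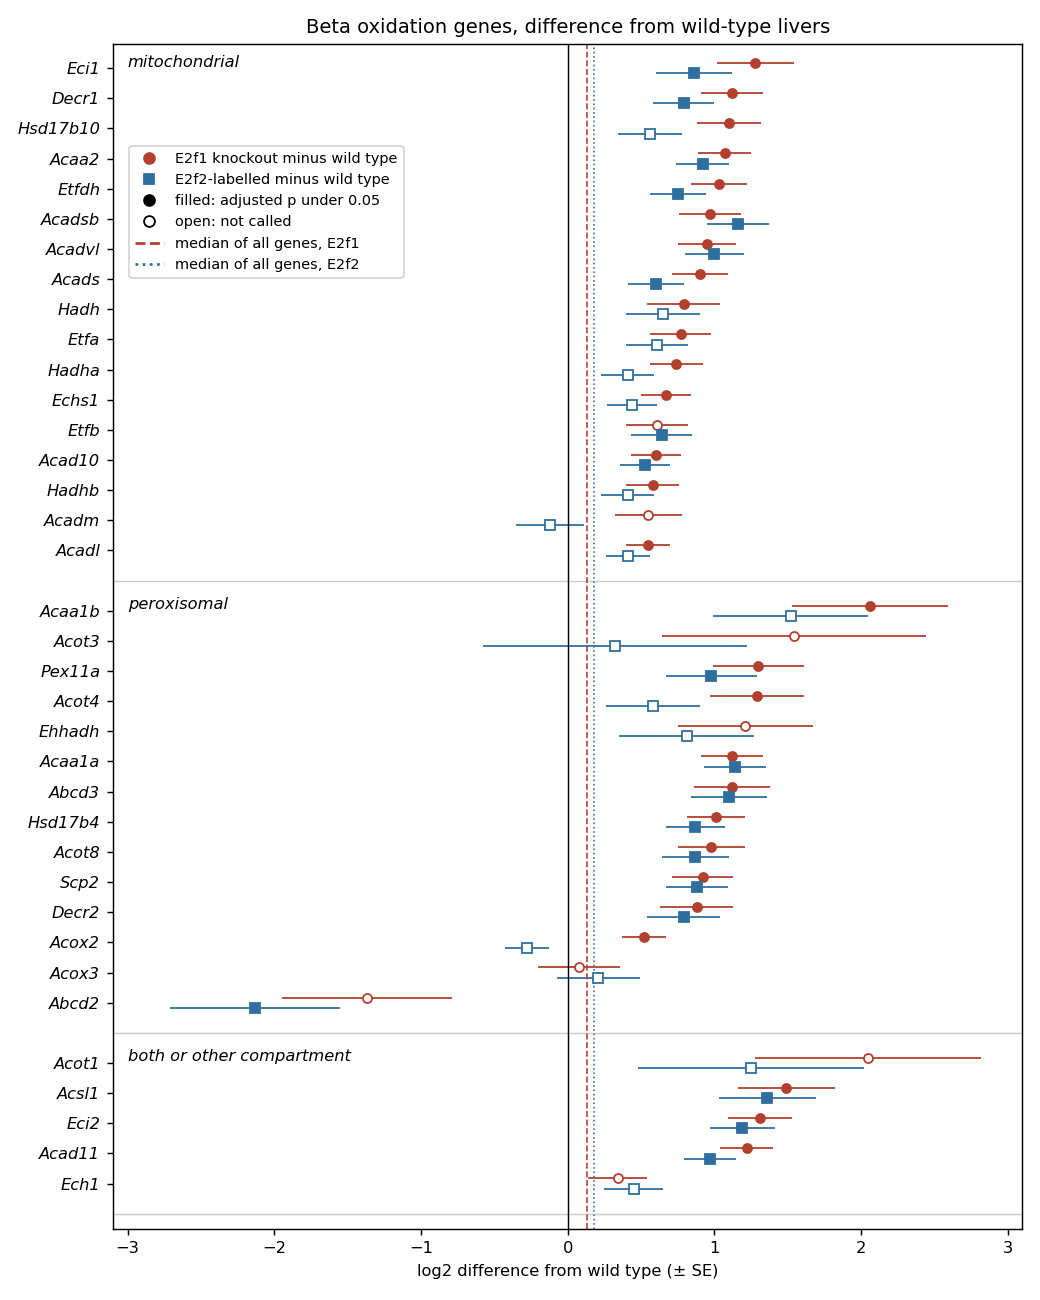
Log2 difference from wild-type livers (x axis, points with SE) for 36 beta oxidation genes (y axis), grouped by compartment, with circles for E2f1 knockout and squares for E2f2-labelled livers, filled where called. The E2f1 knockout points lie right of 0 for every gene but Abcd2, and the peroxisomal genes run from -1.37 to 2.06 where the mitochondrial genes run from 0.55 to 1.28.

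The mitochondrial members with the largest called changes in E2f1 knockout livers were Eci1, Decr1, Hsd17b10 and Acaa2. Eci1 encodes the enoyl-CoA isomerase that moves double bonds of unsaturated chains. It measured 5.40, 5.89, 5.86 and 5.26 in E2f1 knockout livers, 5.14, 4.62, 5.29 and 5.71 in E2f2-labelled livers and 4.11, 3.92, 4.87 and 4.42 in wild-type livers. All E2f1 knockout livers were above all wild-type livers, while the lowest E2f2-labelled liver fell among them, and the log2 differences were 1.28 ± 0.26 (fold 2.42, adjusted p = 0.00719) and 0.86 ± 0.26 (adjusted p = 0.0367).

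Decr1, the 2,4-dienoyl-CoA reductase that works beside Eci1 on polyunsaturated chains, measured 7.30, 7.47, 7.50 and 6.97 in E2f1 knockout livers, 6.89, 6.77, 7.25 and 7.03 in E2f2-labelled livers and 6.05, 5.85, 6.77 and 6.09 in wild-type livers. Only wild-type replicate 3, at 6.77, reached an E2f2-labelled liver, and no wild-type liver reached an E2f1 knockout liver. The differences were 1.12 ± 0.21 (adjusted p = 0.00465) for E2f1 knockout and 0.79 ± 0.21 (adjusted p = 0.0192) for E2f2-labelled livers.

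Acaa2 is the thiolase that closes each mitochondrial turn. Its values were 8.89, 9.01, 9.15 and 8.66 in E2f1 knockout livers, 8.70, 8.65, 9.09 and 8.68 in E2f2-labelled livers and 7.72, 7.58, 8.29 and 7.86 in wild-type livers. Neither group overlapped wild type, with differences of 1.07 ± 0.18 (adjusted p = 0.00318) and 0.92 ± 0.18 (adjusted p = 0.00567).

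Hsd17b10 encodes a short-chain hydroxyacyl-CoA dehydrogenase that also takes part in isoleucine breakdown and mitochondrial tRNA processing. It measured 6.67, 6.57, 7.16 and 6.78 in E2f1 knockout livers, 5.88, 6.32, 6.40 and 6.40 in E2f2-labelled livers and 5.49, 5.30, 6.25 and 5.73 in wild-type livers. The 3 groups were ordered, with every E2f1 knockout liver above every other liver and the E2f2-labelled livers partly among wild type. The difference from wild type was 1.10 ± 0.22 in E2f1 knockout (adjusted p = 0.00603) and 0.56 ± 0.22 in E2f2-labelled livers (adjusted p = 0.089), and between E2f1 knockout and E2f2-labelled livers it was 0.55 ± 0.22 (adjusted p = 0.338), which was not called.

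The acyl-CoA dehydrogenases, which open the cycle and differ in the chain length they accept, did not move alike. Acadsb, for short branched chains, measured 2.07, 2.39, 2.82 and 2.27 in E2f1 knockout livers, 2.54, 2.58, 2.68 and 2.51 in E2f2-labelled livers and 1.10, 1.21, 1.96 and 1.40 in wild-type livers. Both groups were above every wild-type liver, by 0.97 ± 0.21 (adjusted p = 0.00785) and 1.16 ± 0.21 (adjusted p = 0.00329). Acadvl, for very long chains, measured 7.68, 7.84, 8.06 and 7.77 in E2f1 knockout livers, 7.63, 7.77, 8.12 and 8.00 in E2f2-labelled livers and 6.55, 6.57, 7.34 and 7.08 in wild-type livers. It too separated both groups from wild type, by 0.95 ± 0.20 (adjusted p = 0.00742) and 1.00 ± 0.20 (adjusted p = 0.00575).

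Acadm, the medium-chain dehydrogenase, was not called in either comparison. Its values were 6.46, 6.85, 6.85 and 6.04 in E2f1 knockout livers, 6.10, 5.73, 5.85 and 5.86 in E2f2-labelled livers and 5.80, 5.63, 6.54 and 6.05 in wild-type livers. E2f2-labelled livers lay within the wild-type range, at -0.12 ± 0.23 (adjusted p = 0.738), and E2f1 knockout livers overlapped it, at 0.55 ± 0.23 (adjusted p = 0.113). Acads, for short chains, rose by 0.90 in E2f1 knockout livers and 0.60 in E2f2-labelled ones. Acadl, for long chains, rose in E2f1 knockout livers by 0.55 and was not called in E2f2-labelled livers at 0.41 (adjusted p = 0.0647). Acadl ranged over 2.64 to 3.22 in E2f1 knockout, 2.66 to 2.95 in E2f2-labelled and 2.35 to 2.41 in wild-type livers, with no overlap of either group with wild type. Acad10, a family member of less defined substrate, rose by 0.60 and 0.53 in the same order. The Acad10 call was lost in 10 of 22 other settings in E2f1 knockout and 14 of 22 in E2f2-labelled livers. The Acads call in E2f2-labelled livers was also lost in 14 of 22.

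The remaining mitochondrial members cover the middle of the cycle and its electron carriers. Etfa and Etfb, the subunits of the electron transfer flavoprotein, differed by 0.77 (called) and 0.61 (adjusted p = 0.0567, groups not overlapping) in E2f1 knockout livers. In E2f2-labelled livers Etfb was called at 0.64 and Etfa was not at 0.61 (adjusted p = 0.0563). Etfa ranged over 6.48 to 6.91 in E2f1 knockout, 6.44 to 6.74 in E2f2-labelled and 5.65 to 6.66 in wild-type livers. Etfb ranged over 8.13 to 8.70 in E2f1 knockout, 8.08 to 8.75 in E2f2-labelled and 7.40 to 8.08 in wild-type livers. Etfdh, which passes their electrons to ubiquinone, rose in both groups, by 1.03 and 0.75. Echs1, the enoyl-CoA hydratase, and Hadh, the hydroxyacyl-CoA dehydrogenase for medium and short chains, rose by 0.67 and 0.79 in E2f1 knockout livers. In E2f2-labelled livers they stood at 0.44 (adjusted p = 0.0817) and 0.65 (adjusted p = 0.0806). Echs1 ranged over 5.04 to 5.70 in E2f1 knockout, 4.94 to 5.29 in E2f2-labelled and 4.46 to 4.83 in wild-type livers. Hadh ranged over 6.32 to 6.43 in E2f1 knockout, 6.01 to 6.55 in E2f2-labelled and 5.06 to 6.29 in wild-type livers, so its E2f2-labelled livers overlapped wild type. The Hadh call in E2f1 knockout livers was lost in 15 of 22 other settings. With quantile normalization its difference was 0.50 (adjusted p = 0.191). The Etfa call in E2f1 knockout livers was lost in 9 of 22 settings, and the Etfb call in E2f2-labelled livers in 14 of 22. With the slide as a block, Etfb was also called in E2f1 knockout livers (adjusted p = 0.00368), and Echs1, Etfa, Hsd17b10, Hadha and Acadl were also called in E2f2-labelled livers (adjusted p = 0.0241, 0.0318, 0.0243, 0.0495 and 0.0497).

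Hadha and Hadhb encode the subunits of the trifunctional protein, which carries out the last 3 reactions of the cycle on long chains. Hadha measured 2.32, 2.69, 2.75 and 2.69 in E2f1 knockout livers, 2.18, 2.05, 2.52 and 2.39 in E2f2-labelled livers and 1.66, 1.60, 1.94 and 2.28 in wild-type livers. Hadhb measured 5.22, 5.50, 5.77 and 5.07 in E2f1 knockout livers, 5.23, 4.99, 5.54 and 5.12 in E2f2-labelled livers and 4.84, 4.57, 4.98 and 4.85 in wild-type livers. Both rose in E2f1 knockout livers, by 0.74 ± 0.18 (adjusted p = 0.0152) and 0.58 ± 0.18 (adjusted p = 0.0438), with no overlap with wild type. The Hadhb call was lost in 14 of 22 other settings, and with quantile normalization its difference was 0.28 (adjusted p = 0.232). In E2f2-labelled livers neither was called, each at 0.41, with adjusted p = 0.123 and 0.13. The genes run in opposite directions from starts 272 bases apart on chromosome 5 (GRCm38.p6, RefSeq), so their promoter windows of 300 bases share 228 bases. The window of Hadhb is at chr5:30155003-30155302 on the plus strand, printed 5′ to 3′ to show what both subunits have in common, with the bases it shares with the Hadha window in capitals:
Hadhb: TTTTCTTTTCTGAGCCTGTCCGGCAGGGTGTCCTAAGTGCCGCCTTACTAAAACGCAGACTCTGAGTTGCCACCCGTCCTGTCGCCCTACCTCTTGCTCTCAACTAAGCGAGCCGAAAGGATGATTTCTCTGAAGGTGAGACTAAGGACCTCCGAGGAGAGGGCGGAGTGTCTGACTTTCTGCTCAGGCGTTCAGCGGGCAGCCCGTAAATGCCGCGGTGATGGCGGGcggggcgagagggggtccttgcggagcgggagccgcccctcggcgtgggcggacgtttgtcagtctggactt

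Promoter windows, which run from 250 bases before to 50 after a gene's start, were matched for 33 of the 37 members by symbol, 37 windows in all (Abcd2, Acaa2, Decr1 and Hsd17b4 had no match). On both strands they were searched for AGGTCA repeated in the same direction after 1 base, the element bound by PPARA with its partner RXR, for the looser form with AGGNCA as the unit, which takes in the stricter one, and for the E2F words TTTGGCGC and TTTCCCGC. None of the 37 windows held any of these 4 motifs, which 0.0396%, 0.381%, 0.515% and 1.07% of all 32841 windows held. No match says only that these letters are absent from these windows. The single repeat unit AGGTCA, or its complement, was in 7 of the 37 member windows, or 18.9%, and in 16.3% of all windows. Every stricter repeat holds it. It lay in the windows of Acadm, Echs1, Acadvl, Scp2, Acot4 and Acot3, the last of which has 2 overlapping windows.

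The windows of 3 of these genes are shown as examples from genes that rose in E2f1 knockout livers, chosen after the values were seen, with the unit or its complement in capitals, read 5′ to 3′ on the gene's own strand. Acadvl is at chr11:70015379-70015678 on the minus strand, Scp2 at chr4:108118498-108118797 on the minus strand and Acot4 at chr12:84038129-84038428 on the plus strand:
Acadvl: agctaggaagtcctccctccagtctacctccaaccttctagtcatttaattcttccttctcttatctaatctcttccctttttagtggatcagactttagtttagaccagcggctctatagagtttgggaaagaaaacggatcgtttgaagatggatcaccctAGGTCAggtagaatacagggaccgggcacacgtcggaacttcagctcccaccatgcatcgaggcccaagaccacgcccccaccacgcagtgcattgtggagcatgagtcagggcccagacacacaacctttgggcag
Scp2: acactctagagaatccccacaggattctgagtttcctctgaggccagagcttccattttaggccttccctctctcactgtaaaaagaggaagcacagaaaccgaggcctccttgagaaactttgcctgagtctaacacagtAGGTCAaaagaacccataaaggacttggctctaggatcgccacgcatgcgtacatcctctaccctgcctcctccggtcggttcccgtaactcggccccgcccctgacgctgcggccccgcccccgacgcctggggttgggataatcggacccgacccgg
Acot4: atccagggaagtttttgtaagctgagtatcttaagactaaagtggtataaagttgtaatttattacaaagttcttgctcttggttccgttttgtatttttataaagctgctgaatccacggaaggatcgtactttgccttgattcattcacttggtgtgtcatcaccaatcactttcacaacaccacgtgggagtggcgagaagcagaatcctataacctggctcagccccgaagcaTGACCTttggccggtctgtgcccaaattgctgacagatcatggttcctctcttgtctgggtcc
In Acadvl and Scp2 the unit begins at -87 and -109 relative to the start, and in Acot4 its complement begins at -13. Acadm and Acot3, whose windows also hold it, were called in neither comparison with wild type. A link between the unit and the RNA was not tested. On the same windows median GC content was 61% over mitochondrial, 57.3% over peroxisomal and 52.7% over all windows.

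Peroxisomal members had the larger median and also the wider spread. Acaa1b, a peroxisomal thiolase found in rodents, had the largest called change among members in E2f1 knockout livers (probe at chr9:119057326-119057385, mm9). It measured 6.33, 7.41, 6.83 and 6.55 in E2f1 knockout livers, 5.77, 5.34, 7.06 and 6.78 in E2f2-labelled livers and 3.52, 4.02, 5.98 and 5.36 in wild-type livers. All E2f1 knockout livers exceeded all wild-type livers, by 2.06 ± 0.53 (fold 4.17, adjusted p = 0.0181). E2f2-labelled livers 3 and 4 were high and 1 and 2 within the wild-type range, and the difference of 1.52 ± 0.53 was not called (adjusted p = 0.0586), though it was with the slide as a block (adjusted p = 0.0266). Without wild-type replicate 2 the E2f1 knockout difference was 1.83 and no longer called (adjusted p = 0.0578).

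Its close relative Acaa1a measured 8.00, 8.41, 8.12 and 7.85 in E2f1 knockout livers, 8.17, 7.96, 8.21 and 8.13 in E2f2-labelled livers and 6.71, 6.67, 7.63 and 6.90 in wild-type livers. Both groups stood wholly above wild type, by 1.12 ± 0.21 (adjusted p = 0.00476) and 1.14 ± 0.21 (adjusted p = 0.00417). Whether the probes of such near-identical genes, including the Acot thioesterases, bind each other's RNA was not tested.

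Pex11a, which drives peroxisome elongation and division, measured 6.17, 7.25, 6.71 and 6.41 in E2f1 knockout livers, 5.98, 5.89, 6.80 and 6.59 in E2f2-labelled livers and 5.10, 4.83, 6.02 and 5.37 in wild-type livers. E2f1 knockout livers did not overlap wild type and E2f2-labelled livers did, with differences of 1.30 ± 0.31 (adjusted p = 0.013) and 0.98 ± 0.31 (adjusted p = 0.0397). Abcd3, the membrane transporter that brings branched-chain and bile acid precursors into the peroxisome, measured 6.32, 6.77, 6.61 and 6.21 in E2f1 knockout livers, 6.02, 6.31, 7.02 and 6.48 in E2f2-labelled livers and 5.03, 5.07, 6.06 and 5.29 in wild-type livers. Its overlap followed the same pattern, and the differences were 1.12 ± 0.26 (adjusted p = 0.0125) and 1.10 ± 0.26 (adjusted p = 0.0126).

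Hsd17b4, the D-bifunctional protein, rose by 1.01 in E2f1 knockout livers and 0.87 in E2f2-labelled ones. Scp2, whose longer product is a thiolase for branched chains, rose by 0.92 and 0.88, Decr2, the peroxisomal dienoyl-CoA reductase, by 0.88 and 0.79, and Acot8, a broad thioesterase, by 0.98 and 0.87. These 4 genes were called in both comparisons. Decr2 lost its call in 10 of 22 other settings in E2f1 knockout and 16 of 22 in E2f2-labelled livers, and Acot8 lost its call in 7 of 22 in E2f2-labelled livers.

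The acyl-CoA oxidases among the members, which start the peroxisomal cycle, differed from each other. Acox2 oxidises branched chains and bile acid intermediates (probe at chr14:9058141-9058200, mm9). It measured 7.06, 6.98, 7.45 and 6.96 in E2f1 knockout livers, 6.41, 6.42, 6.30 and 6.13 in E2f2-labelled livers and 6.76, 6.40, 6.56 and 6.65 in wild-type livers. Every E2f1 knockout liver was above every liver of the other groups, while E2f2-labelled livers overlapped wild type. The difference was 0.79 ± 0.15 between E2f1 knockout and E2f2-labelled livers (adjusted p = 0.0182), 0.52 ± 0.15 between E2f1 knockout and wild type (adjusted p = 0.0305) and -0.28 ± 0.15 between E2f2-labelled and wild type (adjusted p = 0.207). The call between E2f1 knockout and E2f2-labelled livers was lost without E2f2-labelled replicate 3 (adjusted p = 0.0521) or 4 (adjusted p = 0.0675), with median centring (adjusted p = 0.0845) and with no filter on dim probes (adjusted p = 0.0625). With quantile normalization the difference from wild type was 0.26 in E2f1 knockout livers (adjusted p = 0.232) and -0.49 in E2f2-labelled livers, which was then called (adjusted p = 0.0347). Acox3, an oxidase for branched chains, ranged from 3.24 to 4.12 in E2f1 knockout, 3.22 to 4.31 in E2f2-labelled and 3.19 to 4.09 in wild-type livers, and was not called (adjusted p = 0.872 and 0.616).

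Abcd2, a transporter of very long-chain acyl-CoA, was the member that fell (probe at chr15:90976565-90976624, mm9). It measured -2.55, -4.08, -2.44 and -3.02 in E2f1 knockout livers, -5.23, -2.73, -3.46 and -3.70 in E2f2-labelled livers and -0.99, -1.54, -3.09 and -0.99 in wild-type livers. Wild-type livers 1, 2 and 4 were the highest of all 12, and wild-type replicate 3 lay among the livers of the other groups. It fell by 2.13 ± 0.58 in E2f2-labelled livers (adjusted p = 0.0228), and in E2f1 knockout livers the difference was -1.37 ± 0.58 (adjusted p = 0.119). The probe was dim, above background on 3 of 4 E2f1 knockout, 1 of 4 E2f2-labelled and 4 of 4 wild-type arrays. The fall was not called without wild-type replicate 1, 2 or 4 or without E2f2-labelled replicate 1 (adjusted p = 0.0616, 0.0566, 0.0574 and 0.0513). In E2f1 knockout livers it was called without wild-type replicate 3, at -1.85 (adjusted p = 0.0281). The size of the difference also depended on the setting. Over 21 other settings it ranged from -2.6 to -0.57 in E2f2-labelled and from -1.85 to -0.48 in E2f1 knockout livers.

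Thioesterases whose genes lie on chromosome 12 and Ehhadh, the L-bifunctional enzyme, varied among E2f1 knockout livers, with an SD of 1.96 for Acot3, 1.67 for Acot1, 0.87 for Ehhadh and 0.69 for Acot4. Acot1, a cytosolic thioesterase, measured 2.05, 6.06, 4.11 and 3.45 in E2f1 knockout livers, 2.88, 1.68, 4.54 and 3.33 in E2f2-labelled livers and 1.39, 1.39, 2.87 and 1.79 in wild-type livers. Acot3, a peroxisomal thioesterase, measured -1.55, 2.45, -1.81 and 0.16 in E2f1 knockout livers, -2.24, -2.07, -0.14 and -1.20 in E2f2-labelled livers and -2.75, -2.77, -1.40 and 0.00 in wild-type livers. In both, E2f1 knockout replicate 2 was the highest of all 12 livers and the groups overlapped. Their differences in E2f1 knockout livers, 2.05 ± 0.77 and 1.54 ± 0.90, were not called (adjusted p = 0.0774 and 0.26), nor were those of 1.25 ± 0.77 and 0.32 ± 0.90 in E2f2-labelled livers (adjusted p = 0.263 and 0.83).

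Acot4, a peroxisomal thioesterase for dicarboxylic chains, measured 0.19, 1.76, 0.54 and 0.55 in E2f1 knockout livers, -0.11, -0.31, 0.60 and 0.03 in E2f2-labelled livers and -0.65, -0.97, -0.28 and -0.21 in wild-type livers. E2f1 knockout livers were above all wild-type livers, by 1.29 ± 0.32 (adjusted p = 0.0162), and E2f2-labelled livers overlapped wild type, at 0.58 ± 0.32 (adjusted p = 0.215). Ehhadh measured 3.54, 5.40, 4.30 and 3.58 in E2f1 knockout livers, 3.81, 3.04, 4.28 and 4.11 in E2f2-labelled livers and 2.20, 2.50, 3.75 and 3.55 in wild-type livers. Its differences of 1.21 ± 0.46 and 0.81 ± 0.46 were not called (adjusted p = 0.0845 and 0.227).

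E2f1 knockout replicate 2 stood above the mean of the other 3 E2f1 knockout livers by 3.52 for Acot3, 2.86 for Acot1, 1.59 for Ehhadh and 1.33 for Acot4. The same quantity was 0.84 for Acaa1b, 0.82 for Pex11a and 0.76 for Acsl1. Its median was 0.41 over peroxisomal and 0.00 over mitochondrial members. This liver was chosen after the values were seen, so the contrast is a description.

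**Figure D2:**
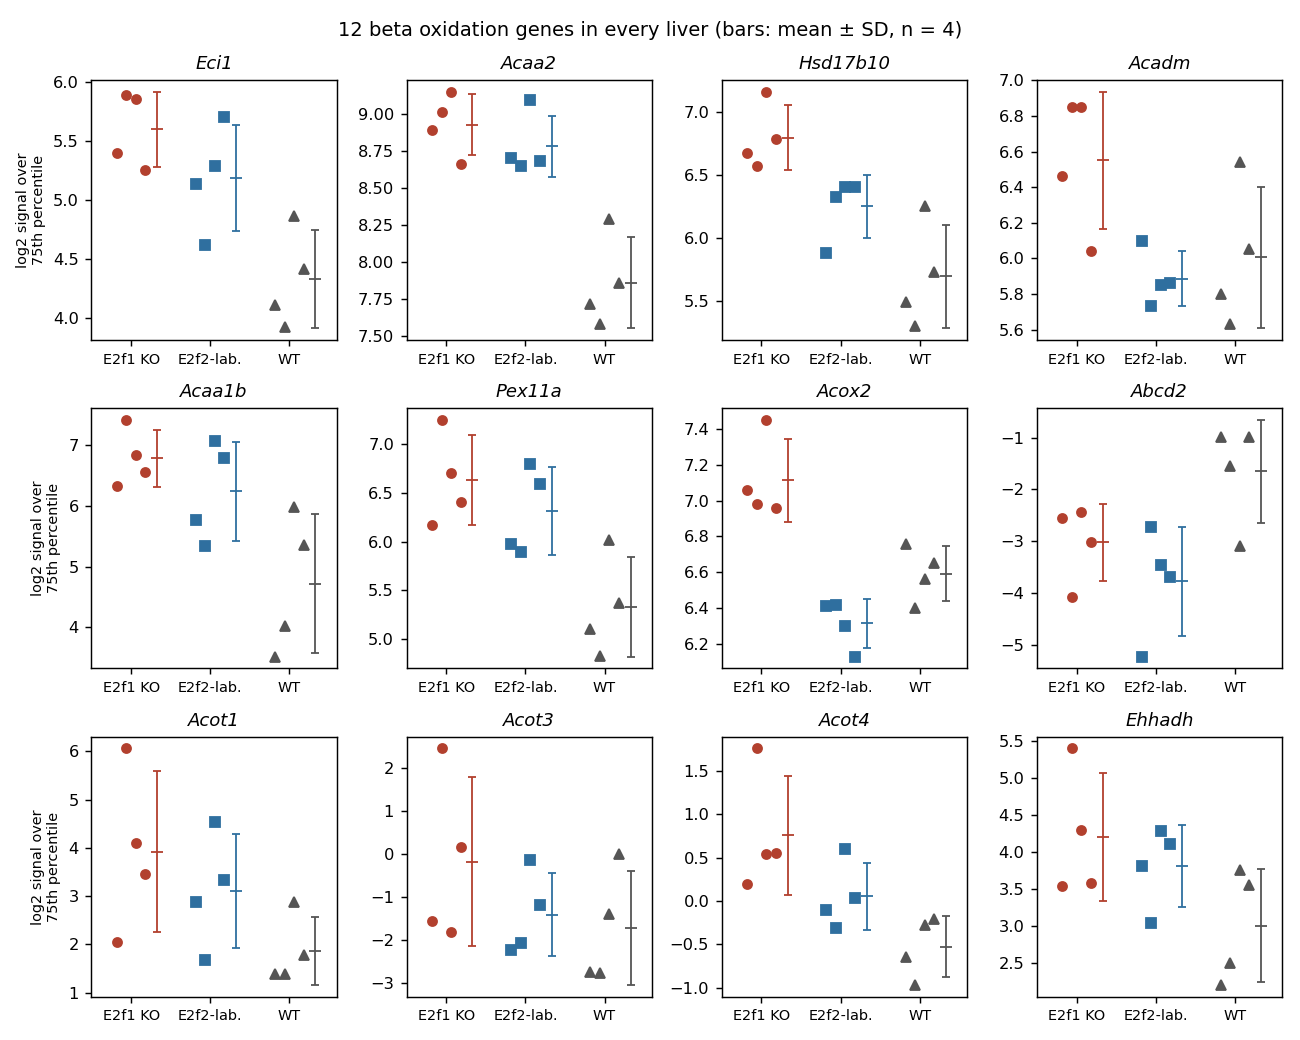
Log2 signal over the array's 75th percentile (y axis, a scale per panel) for 12 beta oxidation genes in each liver, with E2f1 knockout left, E2f2-labelled in the middle and wild type right (bars: mean ± SD, n = 4 livers). Acox2 separates the E2f1 knockout livers from all others, Abcd2 is highest in 3 wild-type livers, and 1 E2f1 knockout liver tops Acot1, Acot3, Acot4 and Ehhadh.

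In the mixed class 3 genes changed alike in both groups. Acsl1, the main long-chain acyl-CoA synthetase of liver, measured 7.26, 8.25, 7.88 and 7.33 in E2f1 knockout livers, 7.13, 7.0, 8.24 and 7.84 in E2f2-labelled livers and 5.86, 5.88, 6.90 and 6.12 in wild-type livers. Eci2, an enoyl-CoA isomerase of peroxisomes and mitochondria, measured 6.71, 6.98, 7.35 and 6.99 in E2f1 knockout livers, 6.78, 6.67, 7.25 and 6.84 in E2f2-labelled livers and 5.34, 5.50, 6.30 and 5.65 in wild-type livers. Acad11, a dehydrogenase for very long chains, measured 6.13, 6.79, 6.76 and 6.30 in E2f1 knockout livers, 6.21, 6.02, 6.54 and 6.18 in E2f2-labelled livers and 5.30, 5.04, 5.42 and 5.32 in wild-type livers. In all 3 genes every liver of both groups exceeded every wild-type liver. The differences in E2f1 knockout livers were 1.49 ± 0.33 for Acsl1, 1.31 ± 0.22 for Eci2 and 1.22 ± 0.18 for Acad11 (adjusted p = 0.00973, 0.00311 and 0.00175). In E2f2-labelled livers they were 1.36 ± 0.33, 1.19 ± 0.22 and 0.97 ± 0.18 (adjusted p = 0.0135, 0.00445 and 0.00463). Ech1, a dienoyl-CoA isomerase of both organelles, ranged over 4.48 to 5.31 in E2f1 knockout, 4.63 to 5.13 in E2f2-labelled and 4.30 to 4.78 in wild-type livers. The groups overlapped and it was not called, at 0.34 and 0.45 (adjusted p = 0.26 and 0.129), although with the slide as a block it was called in E2f2-labelled livers (adjusted p = 0.0489).

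Livers of the same group were not alike, and the spread differed between the classes. The median SD over peroxisomal members was 0.40 in E2f1 knockout, 0.41 in E2f2-labelled and 0.46 in wild-type livers, against 0.25, 0.22 and 0.32 over mitochondrial members. The largest SD of any member was 1.96, for Acot3 in E2f1 knockout livers. The smallest was 0.03, for Acadl in wild-type livers.

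Per liver, the median deviation of mitochondrial members from their means was 0.22, 0.31, 0.63 and 0.23 in E2f1 knockout, 0.03, 0.00, 0.29 and 0.15 in E2f2-labelled and -0.76, -0.74, -0.19 and -0.39 in wild-type livers. For peroxisomal members it was 0.17, 0.68, 0.47 and 0.25 in E2f1 knockout, -0.11, -0.04, 0.50 and 0.40 in E2f2-labelled and -0.97, -1.0, -0.11 and -0.50 in wild-type livers. E2f1 knockout replicate 3 led the mitochondrial and replicate 2 the peroxisomal members, and wild-type replicate 3 was the highest wild-type liver for both classes. Replicate 3 was alone the highest of its group for 18 of 36 members in E2f1 knockout, 23 in E2f2-labelled and 25 in wild-type livers. The 3 arrays with that number shared a slide.

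**Figure D3:**
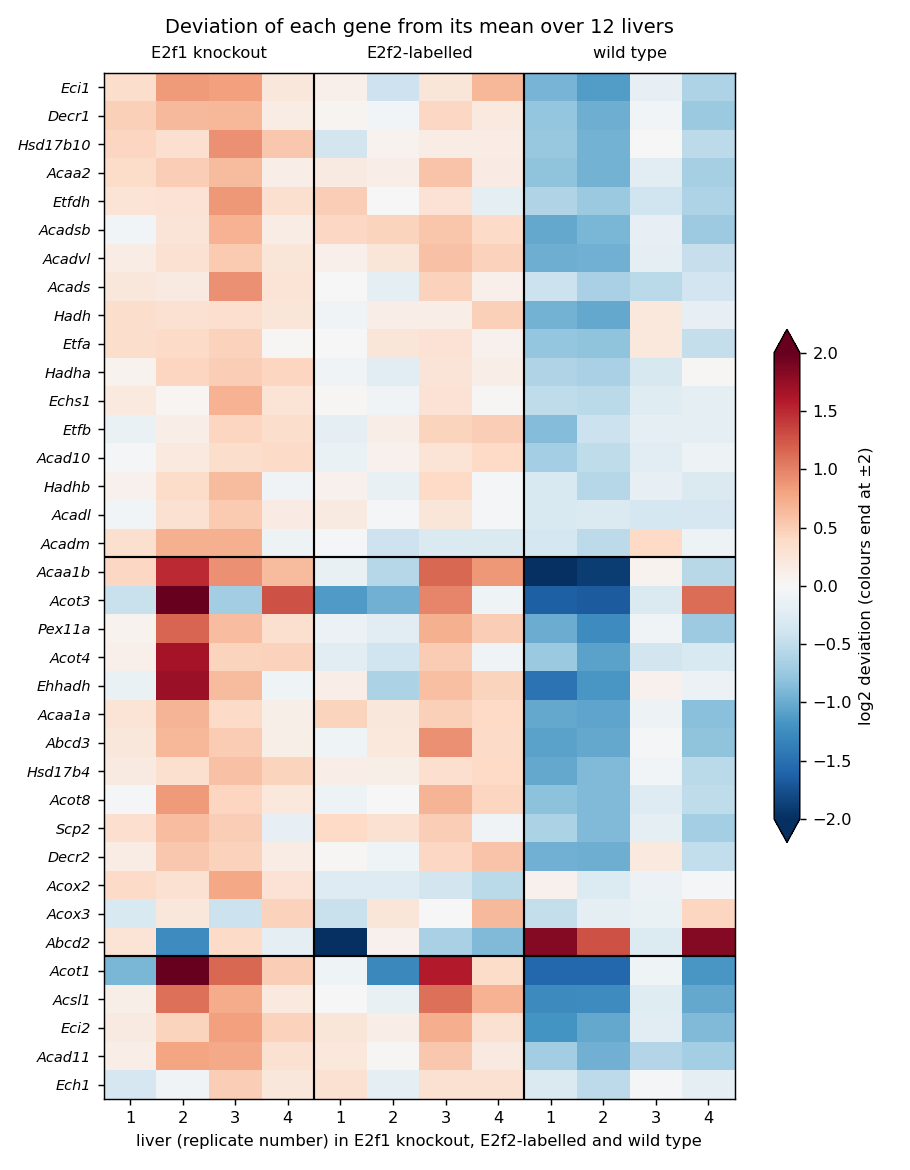
Deviation of each of 36 beta oxidation genes (rows, by compartment) from its mean over 12 livers (columns, 4 per group), on a log2 colour scale that ends at ±2. The wild-type columns are mostly blue, replicate 3 least so, the Abcd2 row runs the other way, and the Acot3, Acot4, Ehhadh and Acot1 rows are darkest in E2f1 knockout replicate 2.

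Compared within each slide, both classes were higher in both groups on all 4 slides. The median difference of E2f1 knockout from wild type on slides 1 to 4 was 0.87, 1.18, 0.81 and 0.53 for mitochondrial members and 1.08, 1.72, 0.64 and 0.68 for peroxisomal members. For E2f2-labelled livers it was 0.68, 0.70, 0.56 and 0.55 for mitochondrial and 0.93, 0.89, 0.63 and 0.77 for peroxisomal members. The peroxisomal median was the larger on 3 of 4 slides for E2f1 knockout and on 4 of 4 for E2f2-labelled livers. With the slide as a block, 16 mitochondrial and 10 peroxisomal members rose in E2f1 knockout livers, and 14 and 8 rose in E2f2-labelled livers. Rises over all genes also became more numerous with the block, 3706 against 2709 without it in E2f1 knockout livers and 4488 against 3006 in E2f2-labelled ones.

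Liver tumour markers were mostly lower in both groups, but their list was chosen with earlier results of these data known. Its counts are therefore a description and not a test. The 6 tested were Afp (alpha-fetoprotein), Gpc3 (glypican-3), Ly6d, Akr1c18, Golm1 and H19. Of these markers 5 fell in E2f1 knockout livers and 6 in E2f2-labelled ones, where 7.41% and 7.58% of all genes fell. Their summed level on the log2 scale ranged from 2.08 to 4.59 in E2f1 knockout, 1.57 to 2.76 in E2f2-labelled and 5.18 to 8.72 in wild-type livers. Wild-type replicate 3 was the 5.18, and it was also the wild-type liver highest in most beta oxidation members. Afp measured 1.04, 0.43, -0.18 and 2.59 in E2f1 knockout livers, -0.31, 0.06, -0.45 and -1.31 in E2f2-labelled livers and 6.17, 5.80, 2.39 and 4.63 in wild-type livers, and it was above background on all 12 arrays. The 4 wild-type livers included the 3 highest, and wild-type replicate 3 lay below 1 E2f1 knockout liver. The part of tumour cells in the beta oxidation result was not tested. Without wild-type replicate 3 the rises in E2f1 knockout livers numbered 17 of 17 mitochondrial and 11 of 14 peroxisomal members, and in E2f2-labelled livers 11 and 8. Calls over all genes then numbered 4896 against 4234 with all livers for E2f1 knockout, and 5278 against 4565 for E2f2-labelled livers. Wild-type replicate 3 was chosen after the values were seen. Where it was the highest wild-type liver, leaving it out lowers the wild-type mean by construction, so these counts are a description.

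Of 8 hepatocyte markers tested, such as Alb, 1 rose in E2f1 knockout livers, where 13.2% of all genes rose, and 2 in E2f2-labelled ones, where 14.6% did. Their medians were 0.11 and 0.25. Their summed level ranged from 13.04 to 13.34 in E2f1 knockout, 12.98 to 13.37 in E2f2-labelled and 12.87 to 13.34 in wild-type livers.

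Some markers of other cells were called too. Of 10 macrophage markers 1 rose and 3 fell in E2f1 knockout livers, and 1 rose and 4 fell in E2f2-labelled livers. Of all genes 13.2% rose and 7.41% fell in E2f1 knockout livers, and 14.6% rose and 7.58% fell in E2f2-labelled ones. Itgax, an integrin of myeloid cells, differed by -3.13 and -4.25, Trem2, a receptor of lipid-associated macrophages, by -1.52 and -2.64, and Clec4f, a Kupffer cell lectin, by 1.87 and 1.40. Gpnmb was not above background in either group and was at least 2.63-fold lower in E2f1 knockout and at least 2.91-fold lower in E2f2-labelled livers. It passed the filter on dim probes only through the wild-type arrays, where it is high, so its place among the falls is a description. The endothelial marker Lyve1 differed by -2.91 and -2.79, the fibroblast collagen Col3a1 by -0.91 and -1.50, and Spp1, from the cholangiocyte list, by -2.30 and -2.39. All of these were called in both comparisons, and the adipocyte marker Fabp4 was called in E2f2-labelled livers, at -3.50. Most endothelial, stellate and fibroblast, and cholangiocyte markers were not called, and none rose. Of 6, 7 and 3 tested, 1, 2 and 1 fell with E2f1 knockout, and 2, 2 and 1 fell in the E2f2-labelled group. Of 5 T and NK cell markers, 2 fell in the E2f2-labelled group and none with E2f1 knockout. Of 3 B cell markers only Ms4a1 was called, higher by 1.86 with E2f1 knockout. The summed macrophage level ranged from 7.16 to 8.54 in E2f1 knockout, 6.45 to 8.74 in E2f2-labelled and 5.73 to 7.98 in wild-type livers, so the groups overlapped in it. Like the other summed levels it adds linear signal over probes, so bright probes, here those of Marco and Csf1r, weigh most. The part of these cells in the beta oxidation result was not tested.

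**Figure D4:**
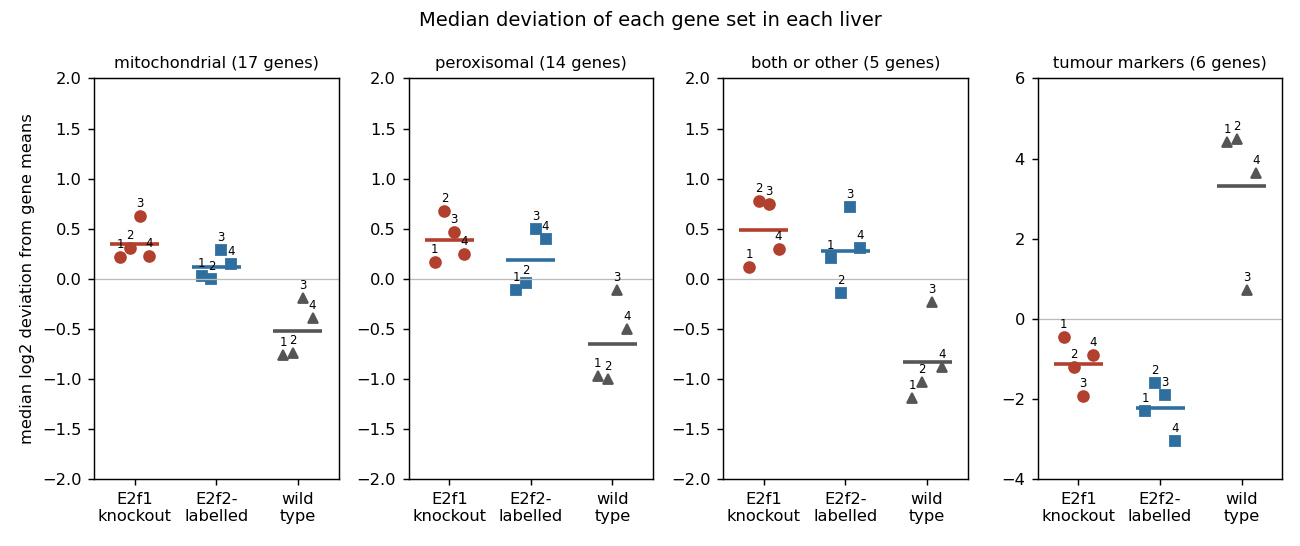
Median log2 deviation of each gene set from its gene means (y axis) in each numbered liver of the E2f1 knockout, E2f2-labelled and wild-type groups (lines: group means), for the 3 classes and for liver tumour markers on a wider scale. Wild-type replicate 3 lies highest of its group in the first 3 panels and lowest in the tumour marker panel, at 0.73.

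Other genes that feed, build or regulate the pathway were followed as lists. Beside their counts stand the shares of all genes, 13.2% higher and 7.41% lower in E2f1 knockout livers. In E2f2-labelled livers these shares were 14.6% and 7.58%. In the carnitine shuttle 4 of 6 tested genes rose in each comparison. Besides Cpt2, they included Slc22a5, the plasma membrane carnitine transporter, at 1.26 in E2f1 knockout livers and 1.08 in E2f2-labelled ones. Of 9 other acyl-CoA synthetases 5 rose and 1 fell in each comparison. Acsm5 rose by 1.84 and 1.51 and Acsm1 by 1.63 and 1.68, both enzymes for medium chains. The gene that fell was Acsl3 in E2f1 knockout livers (-1.57) and Acsl5 in E2f2-labelled livers (-0.97). Acsl5 was not called in E2f1 knockout livers at -0.66 (adjusted p = 0.0734), nor Acsl3 in E2f2-labelled livers at -0.56 (adjusted p = 0.298). Between E2f1 knockout and E2f2-labelled livers no gene of this list was called.

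Of 15 further genes of peroxisomal oxidation, 11 rose in E2f1 knockout livers and 12 in E2f2-labelled ones, and none fell. Nudt7, a peroxisomal CoA hydrolase, rose by 1.89 and 2.61, and Phyh, which starts phytanic acid breakdown, by 1.55 and 1.44. Acot5, another thioesterase gene on chromosome 12, measured -3.20, 1.01, -1.10 and -1.71 in E2f1 knockout against -4.12, -4.11, -3.17 and -3.07 in wild-type livers. Replicate 2 was again the high liver, and the probe was above background on 4 of 4 E2f1 knockout but 1 of 4 wild-type arrays. The difference of 2.36 ± 0.76 was called (adjusted p = 0.0452), but not with the slide as a block (adjusted p = 0.0544).

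Of 15 peroxins, the proteins that build peroxisomes, 11 rose in E2f1 knockout livers and 12 in E2f2-labelled ones. Pex26, a membrane anchor of the import machinery, rose by 1.11 and 1.15. Pex5, the receptor for imported enzymes, rose by 1.03 in E2f2-labelled livers and was not called in E2f1 knockout livers at 0.65 (adjusted p = 0.0569). Branched and odd-chain oxidation rose in 13 of 13 genes in E2f1 knockout livers and 11 of 13 in E2f2-labelled ones. Gcdh, glutaryl-CoA dehydrogenase, rose by 1.53 and 0.94, Pccb, a propionyl-CoA carboxylase subunit, by 1.32 and 1.01, and Hibadh, of valine breakdown, by 1.12 and 1.01.

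Among 11 regulators of the pathway, 5 rose in each comparison and none fell. Ppargc1b, a coactivator of mitochondrial genes, measured -0.80, -0.46, -0.38 and -0.20 in E2f1 knockout livers, -1.88, -2.02, -0.68 and -1.21 in E2f2-labelled livers and -3.17, -2.99, -1.98 and -2.42 in wild-type livers. Every E2f1 knockout liver was above every wild-type liver, and the differences were 2.18 ± 0.32 (adjusted p = 0.00165) and 1.19 ± 0.32 (adjusted p = 0.0212). Lpin1, a phosphatidate phosphatase that also acts as a coactivator of PPARA, rose by 2.24 ± 0.47 in E2f1 knockout livers (adjusted p = 0.00753) and was not called in E2f2-labelled livers at 0.43 ± 0.47 (adjusted p = 0.539). The difference of Lpin1 between E2f1 knockout and E2f2-labelled livers was 1.81 ± 0.47 (adjusted p = 0.0937), which was not called. Sirt3, the mitochondrial deacetylase, rose by 1.21 and 1.06.

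The counts depended on single livers. Without wild-type replicate 2 the rises in E2f1 knockout livers numbered 8 mitochondrial and 6 peroxisomal members. Without E2f1 knockout replicate 1 they numbered 14 and 10. Calls over all genes fell as well, from 4234 with all livers to 2538 and 3913 in the same order. For E2f2-labelled livers the called members numbered 12 without wild-type replicate 1, 11 without wild-type replicate 2, 12 without E2f2-labelled replicate 3 and 13 without E2f2-labelled replicate 4, against 20 with all livers. Over all genes the calls there were 3438, 2757, 3043 and 3139 in the same order, against 4565 with all livers. Of the 28 members that rose in E2f1 knockout livers, 16 were called in all 22 other settings tried: 8 mitochondrial, 5 peroxisomal and 3 mixed. Of the 19 that rose in E2f2-labelled livers, 9 were: Acadvl, Acadsb, Acaa2, Hsd17b4, Acaa1a, Abcd3, Acsl1, Acad11 and Eci2. In E2f2-labelled livers the calls of Eci1 and Pex11a were each lost in 11 of 22 settings.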

How the data were processed

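Scanner output of 12 one-colour arrays was used. Per the file headers it was extracted with Agilent Feature Extraction 10.7.3.1, and the processed signal, deposited by the authors, is a linear intensity with background subtracted. A matrix of log2 values, which the authors also deposited, served as an alternative. How it was centred is not given here, its array medians are all 3.84, and it correlated with the scanner values at r of 0.998 or more.

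Control spots and spots marked as outliers were dropped, and repeated spots averaged. The log2 intensity minus the array's 75th percentile over 59305 spots was fitted with limma 3.58.1 in R 4.3.3, all 12 arrays together. A probe was tested if 3 or more of a group's 4 arrays had it well above background, the brightest standing for each gene, and Benjamini-Hochberg adjusted p under 0.05 over 20572 genes was called. Of 48 member probes 46 were tested. For 8 members with several tested probes no sign differed between probes. The precision rests on 4 livers per group, separate mice per the labels. No member spot was saturated.

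Groups followed titles and characteristics. Replicate numbers name slides. Of 12 pairs of arrays on a slide, 10 correlated above 0.1 in their deviations (r from 0.041 to 0.424), and the main results come from the fit without a block. The members and gene lists were chosen with earlier results of these data known. Genes named from other lists were the 2 called genes with the largest change per comparison with wild type, plus any called against the majority. Some genes that this rule would name are not reported here. Values for every liver, or their range, are given for the 4 called members with the largest change per class and comparison, and for members not called or called lower. On simulated data of 20477 genes for E2f1 knockout against wild type, 80 of 100 genes changed by a log2 of 2 and 42 of 100 changed by 1 were recovered, with 11 false calls. Only 200 genes were changed there, with normal noise independent between arrays. In the data 20.6% of genes were called and arrays on a slide correlated, so these recovery figures need not hold for them. Promoter windows are RefSeq's (GRCm38.p6), while probes are placed on mm9. Alternatives were another background correction (normexp, offset 50), normalization or centring, probe filter, probe choice, outlier spots kept, the slide as a block, fewer arrays and each array left out.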

Additional observations from a re-analysis of the deposited data

Results flagged for a closer look

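In 6 of 108 groups of 4 livers a single liver stood apart from the other 3 by more than Dixon's 95% critical value. Chance alone gives this in about 1 of 20 groups. In E2f1 knockout livers, Acads was 3.21 in replicate 3 against 2.48 to 2.56 in the others, and Etfdh was 5.51 in replicate 3 against 4.92 to 4.97. Hadha was 2.32 in E2f1 knockout replicate 1 against 2.69 to 2.75 in the others. In E2f2-labelled livers, Acaa2 was 9.09 in replicate 3 against 8.65 to 8.70, Hsd17b10 was 5.88 in replicate 1 against 6.32 to 6.40, and Ech1 was 4.63 in replicate 2 against 5.12 to 5.13. All of these are mitochondrial members except Ech1, where 17 of 36 members tested are mitochondrial, and none is a wild-type liver. Members measured in the same liver are not independent, so this is a description. The causes of these outliers were not tested.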

How the results depend on the processing

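Over the settings tried, 1377 values for single genes kept their direction and their side of the threshold, 187 were no longer called, 30 became called and 10 reversed. In E2f1 knockout livers 9 mitochondrial members rose with median centring. In E2f2-labelled livers the called members, the mitochondrial rises and the peroxisomal rises numbered 11, 3 and 3 with quantile normalization and with the series matrix, and 10, 3 and 3 with median centring. The mitochondrial and peroxisomal medians there were 0.38 and 0.60 with quantile normalization, 0.37 and 0.59 with the series matrix, and 0.53 and 0.70 with normexp, and the mitochondrial median was 0.53 with median centring. Quantile normalization moved the median of all genes to 0.034 from 0.129 in E2f1 knockout and to 0.068 from 0.182 in E2f2-labelled livers. Without the filter on dim probes 5 mitochondrial members rose in E2f2-labelled livers. Acox2 was not called between E2f1 knockout and E2f2-labelled livers (0 members) with median centring or without the filter. With the slide as a replicate block 14 mitochondrial members rose in E2f2-labelled livers, and no other count of members moved by over 1.5 times. Leaving out each liver gave 17 to 32 members called in E2f1 knockout livers (8 to 17 mitochondrial, 6 to 11 peroxisomal, medians 0.65 to 0.99 and 0.82 to 1.27). In E2f2-labelled livers it gave 11 to 23 (4 to 11 mitochondrial, 4 to 8 peroxisomal, medians 0.50 to 0.74 and 0.70 to 1.02). Between E2f1 knockout and E2f2-labelled livers it gave 0 to 1 members, with medians of 0.10 to 0.28 and 0.07 to 0.37. The reversals were of genes not called. Acox3 in E2f1 knockout livers was -0.11 with quantile normalization, -0.11 with the series matrix, -0.04 without wild-type replicate 1 and -0.07 without E2f1 knockout replicate 4 (range without single livers -0.07 to 0.26), and in E2f2-labelled livers it was -0.02 with quantile normalization and with the series matrix. Acot3 in E2f2-labelled livers was -0.02 and -0.03 without wild-type replicate 1 or 2 and -0.11 without E2f2-labelled replicate 3 (range -0.11 to 0.89), and Acadm was 0.06 without wild-type replicate 3 (range -0.24 to 0.06). Over all genes, 4234 were called for E2f1 knockout against wild type, but 2789 without the dim-probe filter, 2538 without wild-type replicate 2 and 2633 without E2f1 knockout replicate 3. For E2f2-labelled livers 4565 were called, but 2929 with median centring, 2989 without the filter, 2757 without wild-type replicate 2 and 3043 without E2f2-labelled replicate 3. Between E2f1 knockout and E2f2-labelled livers 337 were called, but 215 with normexp and 205 with probes above background on all 12 arrays. Without wild-type replicate 3 the count for E2f1 knockout against wild type rose instead, to 4896. Some of these settings use fewer livers or another number of genes, and why the counts moved was not tested. Dim probes such as those of Abcd2 and Acot5 limit what can be said of their levels.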
